A study of Homo sapiens with 14 samples.

Results

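Translation initiation factors are the proteins that bring the small ribosomal subunit, the initiator tRNA and an mRNA together at a start codon. Their genes were taken as every table row whose symbol begins with EIF1 to EIF6, with the eIF2 kinases (EIF2AK genes) left out. The rule found 69 rows among 16336 gene rows in all, and the genes of the eIF4E-binding proteins, EIF4EBP1, EIF4EBP2 and EIF4EBP3, are given apart. Of the 69 rows, 42 are genes of factors or factor subunits, 19 are pseudogenes, 2 are antisense RNAs, 3 are copies of a factor gene (EIF2S3L, EIF3CL and EIF5AL1) and 3 are related genes whose products act elsewhere (EIF1AD, EIF4A3 and EIF4ENIF1). The first table held 67 rows of the family, the second 67 and the third 68, and 64, 64 and 65 of them had enough counts to be tested.

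Total RNA was sequenced from MV4;11 and EOL-1, a pair of human myeloid leukaemia cell lines, in 14 libraries that form 7 groups of 2. In MV4;11, cells with a hairpin against EZH2 (shEZH2) were set against cells with the empty vector (EV), and cells with guide 1 or guide 5 against MYC (sgcMyc_1 and sgcMyc_5 in the labels) were set against cells with an empty guide vector (sgEV). In EOL-1, cells with a guide against EZH2 (sgEZH2) were set against cells with an empty guide vector (sgEV). All groups, controls included, received doxycycline at 1 µg/ml for 4 days. EZH2 is the enzyme of the Polycomb complex PRC2 that methylates histone H3, and MYC is a transcription factor known for driving ribosome and translation genes.

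In the scanning model of initiation, eIF1 and eIF1A hold the small subunit open, eIF2 with GTP delivers the initiator tRNA, and eIF3 is the large scaffold on which the complex is built. The eIF4F complex (the cap-binding protein eIF4E, the scaffold eIF4G and the helicase eIF4A) brings the mRNA, and eIF4E-binding proteins compete with eIF4G for eIF4E. After the start codon is found, eIF5 promotes GTP hydrolysis by eIF2, eIF5B joins the large subunit and eIF2B recharges eIF2 with GTP. Leukaemia cells are known for a high demand for protein synthesis, and eIF4E is a classical MYC target.

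Libraries held 13313052 to 16274568 gene counts in MV4;11 and 24574102 to 30256823 in EOL-1, and levels are CPM, the count of a gene relative to the gene counts of its library, scaled by TMM. CPM is not per gene length, so levels are compared only within a gene. EZH2 was at 9.75 and 9.70 CPM in shEZH2 cells, against 73.3 and 75.8 CPM in EV cells, and at 27.8 and 26.1 CPM in sgEZH2 cells, against 70.7 and 70.4 CPM in sgEV cells of EOL-1. MYC mRNA did not fall with the guides: it was at 866 and 872 CPM (guide 1) and 818 and 822 CPM (guide 5) in the libraries labelled sgcMyc, against 658 and 660.4 CPM in sgEV cells (log2 difference 0.36 ± 0.038, SE, adjusted p = 1.34e-05, edgeR quasi-likelihood test). The directions given for those libraries rest on their labels, and the MYC protein was not measured here. The myeloid genes PTPRC, CD33, SPI1 and FLT3 were detected in both lines at 64.0 CPM or more, MEIS1 reached 62.6 CPM in MV4;11 and 1.49 CPM at most in EOL-1, and CD3D, CD3E, MS4A1, HBB and EPCAM have no row in the tables used here. The labels do not say whether replicate libraries are separate cultures, and the p-values reflect the spread of the libraries, which may be technical. In RNA from a whole culture, a change in every cell and a change in the share of cells with the transcript cannot be told apart.

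With the EZH2 hairpin in MV4;11, 5 of 13 eIF3 subunit genes rose, while EIF3B, EIF1, EIF2S2 and EIF2B1 fell. Of 64 rows tested, 11 (17.2%) were higher and 5 (7.81%) were lower at an adjusted p under 0.05. The share called was 25%, near the 27.7% of all genes called, 13.4% higher and 14.2% lower. The median log2 difference was 0.040 over the family and 0.002 over all genes tested. The family took 1.57 and 1.56% of gene counts in shEZH2 cells, against 1.50 and 1.52% in EV cells.

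EIF3L, a subunit of the PCI-domain part of eIF3, was at 865 and 866 CPM in shEZH2 cells, against 684 and 683 CPM in EV cells. Both shEZH2 libraries lay above both EV libraries, and the log2 difference was 0.34 ± 0.037 (SE, adjusted p = 4.71e-05, edgeR). EIF3F, one of the MPN-domain subunits, was at 404 and 411 CPM in shEZH2 cells, against 322 and 347 CPM in EV cells, again with no overlap (log2 difference 0.28 ± 0.043, adjusted p = 0.000616, edgeR). EIF3H, the other MPN-domain subunit, was at 717 and 729.6 CPM in shEZH2 cells, against 608 and 636 CPM in EV cells (log2 difference 0.22 ± 0.039, adjusted p = 0.00187, edgeR). EIF3G and EIF3E rose by log2 differences of 0.20 and 0.19. EIF3B, the scaffold subunit that holds EIF3G and EIF3I, moved the other way: it was at 379.8 and 374 CPM in shEZH2 cells, against 446 and 466 CPM in EV cells. Its groups did not overlap, and the log2 difference was −0.27 ± 0.039 (adjusted p = 0.000417, edgeR). EIF3M (0.13, adjusted p = 0.0579), EIF3D, EIF3I, EIF3K, EIF3C, EIF3A and EIF3J did not pass the test, with log2 differences between −0.12 and 0.13.

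Outside eIF3, EIF2A was at 197 and 197 CPM in shEZH2 cells, against 166 and 173 CPM in EV cells. EIF2A is not a subunit of eIF2 but a separate factor that can bring initiator tRNA in noncanonical initiation, and its groups did not overlap (log2 difference 0.21 ± 0.042, adjusted p = 0.00307, edgeR). EIF4A3, a relative of the helicase eIF4A that sits in the exon junction complex, was at 216 and 220.0 CPM in shEZH2 cells, against 184 and 188 CPM in EV cells (log2 difference 0.23 ± 0.040, adjusted p = 0.00151, edgeR). Of 10 genes of the eIF4 group, 3 rose and none fell, a share of 30%, near the 27.7% of all genes called. They were EIF4B, which stimulates the helicase (0.17), and EIF4G2, an eIF4G relative that does not bind eIF4E (0.17). The third was EIF4E2, a cap-binding relative of eIF4E that does not bind eIF4G (0.17). The helicase EIF4A1 missed the threshold at 0.11 (adjusted p = 0.0513), and EIF4E (−0.05 ± 0.047) and EIF4G1 (−0.05 ± 0.041) were not called.

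Among the genes that fell, EIF1, which guards the choice of start codon, was at 269 and 269.6 CPM in shEZH2 cells, against 295 and 310 CPM in EV cells. The groups did not overlap (log2 difference −0.17 ± 0.040, adjusted p = 0.00982, edgeR). EIF2S2, the beta subunit of eIF2, was at 217 and 221 CPM in shEZH2 cells, against 241 and 254 CPM in EV cells (log2 difference −0.17 ± 0.042, adjusted p = 0.0102, edgeR). EIF2B1, the alpha subunit of the exchange factor eIF2B, was at 80.4 and 81.1 CPM in shEZH2 cells, against 87.2 and 94.6 CPM in EV cells (log2 difference −0.17 ± 0.055, adjusted p = 0.0405, edgeR). All 3 genes had both shEZH2 libraries below both EV libraries. The share of all genes separated in this way was not counted. Lack of overlap, here and for the other genes, therefore describes the libraries and adds no support to a call. EIF2S1 (−0.01), EIF2S3 (0.06) and the other 4 eIF2B genes were not called.

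The counts lean on single libraries: 7 rows were higher and 3 lower without shEZH2 replicate 1, 6 and 1 without shEZH2 replicate 2, 13 and 10 without EV replicate 1, and 18 and 6 without EV replicate 2. In the same fits 17.6, 18.5, 30.4 and 28.1% of all genes were called. Scaled to the spike-in RNAs, 3 rows were higher and 2 lower, while EIF3L, EIF3F, EIF3H and EIF3B stayed called under each of the 13 alternatives tried. With either shEZH2 library left out, EIF1, EIF2S2, EIF2B1, EIF3E, EIF4B, EIF4E2 and EIF4G2 lost their calls but kept their direction (EIF1 between −0.21 and −0.13, EIF4B between 0.12 and 0.18 over all alternatives).

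**Figure D1:**
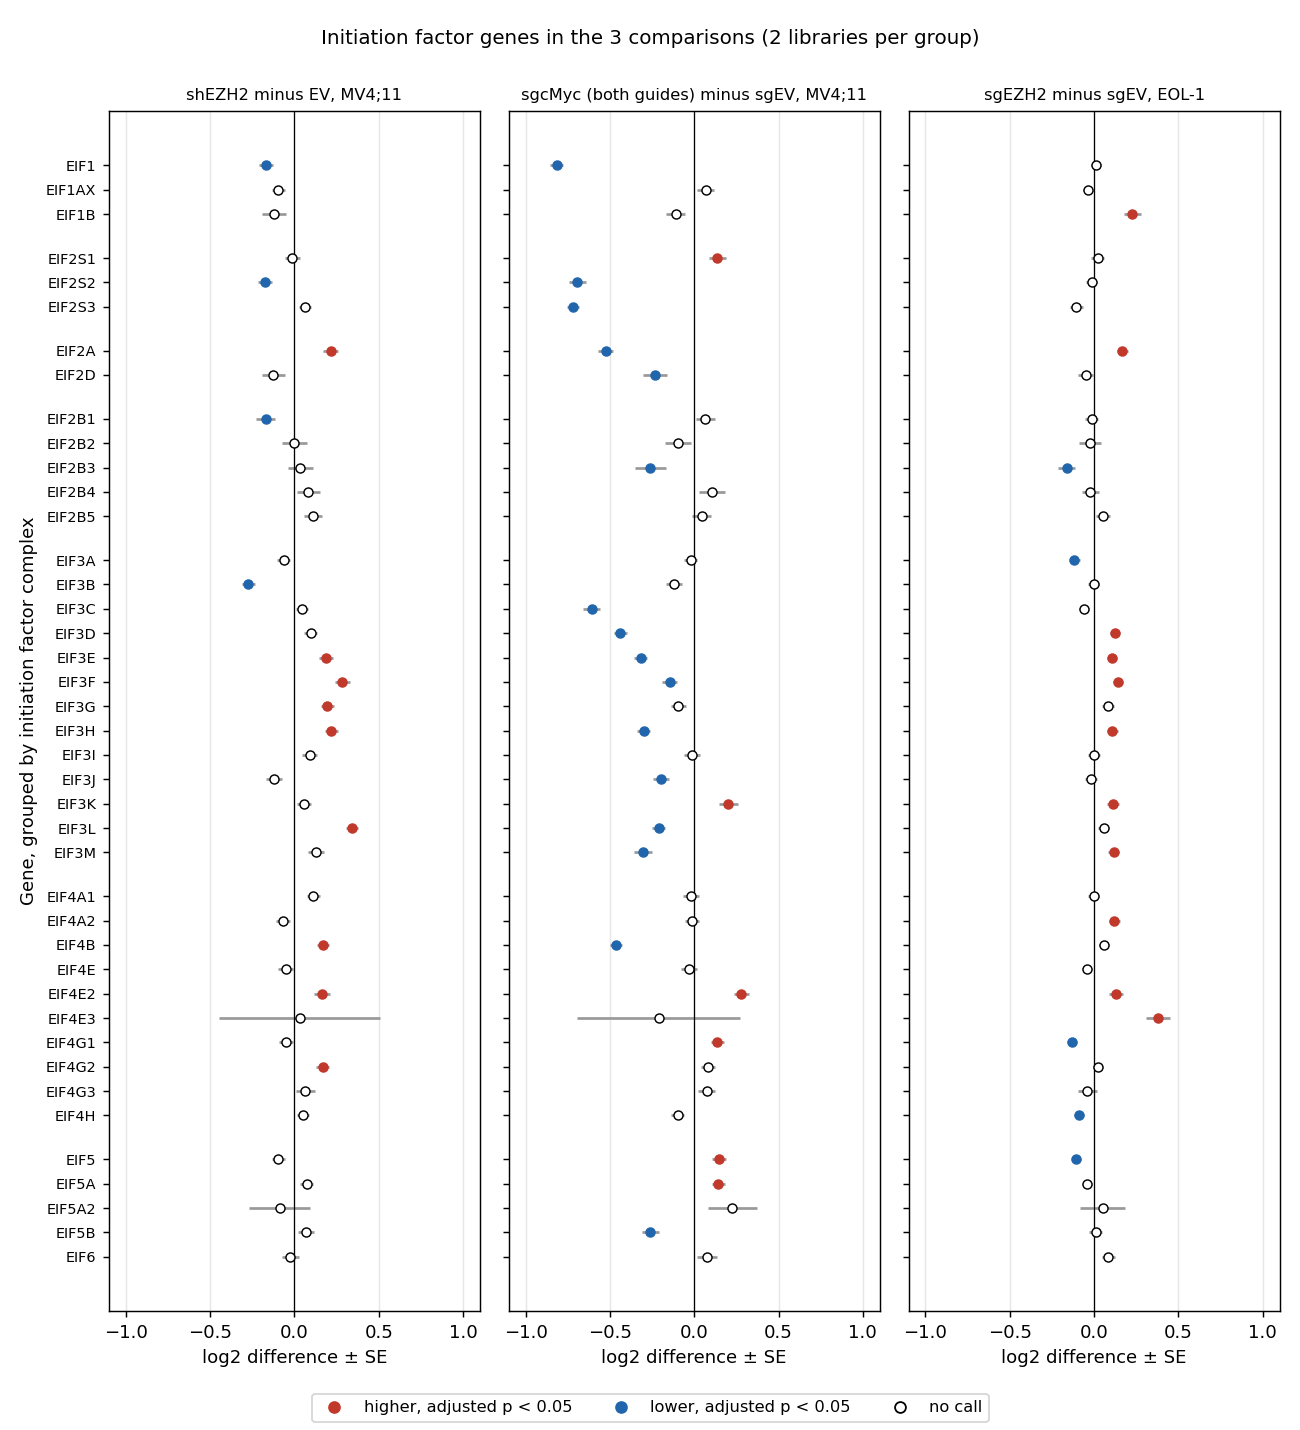
Log2 difference of each initiation factor gene (rows, grouped by complex; EIF1AY is not drawn) in the 3 comparisons, with bars of 1 standard error and filled points for an adjusted p under 0.05. Most called eIF3 genes lie right of 0 in both EZH2 panels and left of 0 in the middle panel, where EIF1, EIF2S2 and EIF2S3 reach −0.82, −0.69 and −0.72.

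In the libraries labelled sgcMyc, the transcripts of eIF1, of the eIF2 subunits EIF2S2 and EIF2S3 and of most called eIF3 subunits were lower than in sgEV cells. Over the mean of both guides, 9 of 64 rows were higher and 20 were lower, beside 37.3% of all genes called, 18.6% higher and 18.7% lower. The median log2 difference was −0.12 over the family and −0.003 over all genes tested. The family took 1.27, 1.28, 1.27 and 1.30% of gene counts in the libraries labelled sgcMyc, against 1.44 and 1.44% in sgEV cells. Genes of eIF3 alone took 0.521, 0.528, 0.513 and 0.533% of counts, against 0.617 and 0.611% in sgEV cells.

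EIF1 had the largest fall among the factor genes. It was at 303 and 299 CPM with guide 1 and at 277 and 299.8 CPM with guide 5, against 514 and 524 CPM in sgEV cells. All 4 libraries labelled sgcMyc lay far below both sgEV libraries (log2 difference −0.82 ± 0.041, adjusted p = 1.21e-08, edgeR). EIF2S3, the GTP-binding gamma subunit of eIF2, was at 279 and 281 CPM with guide 1 and at 269.7 and 267 CPM with guide 5, against 456 and 448 CPM in sgEV cells. EIF2S2, the beta subunit, was at 181 and 190.0 CPM with guide 1 and at 181 and 199.5 CPM with guide 5, against 294 and 313 CPM in sgEV cells. Neither gene's groups overlapped, and the log2 differences were −0.72 ± 0.036 for EIF2S3 (adjusted p = 1.20e-08, edgeR) and −0.69 ± 0.048 for EIF2S2 (adjusted p = 2.44e-07, edgeR). EIF2S1, the alpha subunit that stress kinases phosphorylate, went the other way by a small amount (0.14 ± 0.050, adjusted p = 0.0481, edgeR). Both noncanonical initiator tRNA factors fell, EIF2A by 0.52 and EIF2D by 0.23 on the log2 scale, and of 5 eIF2B genes only EIF2B3 was called (−0.26).

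Of 13 eIF3 genes, 8 fell and 1 rose. EIF3C, a core subunit, was at 444 and 461 CPM with guide 1 and at 415 and 473 CPM with guide 5, against 695 and 671 CPM in sgEV cells. The groups did not overlap (log2 difference −0.61 ± 0.050, adjusted p = 1.19e-06, edgeR). EIF3C shares nearly all its sequence with EIF3CL, which was listed at 13.5 and 0 CPM with guide 1, at 53.2 and 0 CPM with guide 5 and at 0 and 8.77 CPM in sgEV cells, so the split between the copies is uncertain. With both rows summed, an alternative chosen after seeing the data, the log2 difference was −0.56. EIF3D, which can itself bind the cap of some mRNAs, fell by 0.44, and EIF3E, EIF3M, EIF3H, EIF3L, EIF3J and EIF3F fell by 0.32, 0.30, 0.30, 0.21, 0.20 and 0.15 on the log2 scale. EIF3K, a peripheral subunit, was at 313 and 339.7 CPM with guide 1 and at 305 and 349 CPM with guide 5, against 278 and 291 CPM in sgEV cells. All 4 libraries labelled sgcMyc lay above both sgEV libraries (log2 difference 0.20 ± 0.057, adjusted p = 0.0163, edgeR). EIF3A, EIF3B, EIF3G and EIF3I were not called, with log2 differences between −0.12 and −0.015.

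Of 10 genes of the eIF4 group, 1 fell (EIF4B), 2 rose (EIF4E2 and EIF4G1) and 7 were not called. The share called was 30%, under the 37.3% of all genes. EIF4E2 was at 115 and 117 CPM with guide 1 and at 114 and 112 CPM with guide 5, against 92.3 and 96.5 CPM in sgEV cells. These groups did not overlap (log2 difference 0.28 ± 0.045, adjusted p = 0.000396, edgeR). EIF4B fell by 0.46 and the scaffold EIF4G1 rose by 0.14 on the log2 scale. EIF4E, the cap-binding protein, was not called: it was at 86.0 and 82.1 CPM with guide 1 and at 86.2 and 85.6 CPM with guide 5, against 89.8 and 83.8 CPM in sgEV cells. Those libraries overlap, and the log2 difference was −0.03 ± 0.050. The helicases EIF4A1 and EIF4A2 were not called either (−0.02 ± 0.046 and −0.01 ± 0.043).

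Of the genes that act late, EIF5, the partner that makes eIF2 hydrolyse GTP, was at 261 and 249.7 CPM with guide 1 and at 248 and 261 CPM with guide 5, against 231 and 229.8 CPM in sgEV cells. It rose without overlap (log2 difference 0.15 ± 0.041, adjusted p = 0.0137, edgeR). EIF5A, the hypusine-bearing factor that also serves elongation, rose by 0.14, and EIF5B fell by 0.26 on the log2 scale. EIF4ENIF1, the eIF4E transporter, was at 32.2 and 34.3 CPM with guide 1 and at 34.7 and 35.5 CPM with guide 5, against 27.5 and 27.0 CPM in sgEV cells. It rose as well (log2 difference 0.33 ± 0.066, adjusted p = 0.00181, edgeR), and so did EIF4A3 (0.19), at 189 and 181 CPM with guide 1 and 171 and 192 CPM with guide 5, against 161 and 160.4 CPM in sgEV cells.

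Spike-in RNAs took 1.15 and 1.18% (guide 1) and 1.06 and 1.18% (guide 5) of counts in the libraries labelled sgcMyc, against 1.22 and 1.24% in sgEV cells, and scaling to them moved the median of all genes to 0.113. Relative to that scaling 11 rows were higher and 11 lower, and over all genes 72.8% of calls were higher in place of 49.8%; EIF1, EIF2S2, EIF2S3, EIF2A, EIF3C, EIF3D, EIF3E, EIF3H, EIF3M and EIF4B were still called lower, and EIF3L, EIF3F, EIF3J and EIF5B were not. Leaving out sgEV replicate 1 gave 3 higher and 15 lower, leaving out sgEV replicate 2 gave 2 and 14, and leaving out guide 1 replicate 2 gave 5 and 16, beside 20.3, 20.9 and 28.8% of all genes called. With either sgEV library left out, EIF2B3, EIF2D, EIF2S1, EIF3F, EIF3J, EIF3K, EIF4A3, EIF4G1, EIF5 and EIF5A lost their calls and kept their direction (EIF3K between 0.15 and 0.31, EIF5 between 0.13 and 0.26 over all alternatives).

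**Figure D2:**
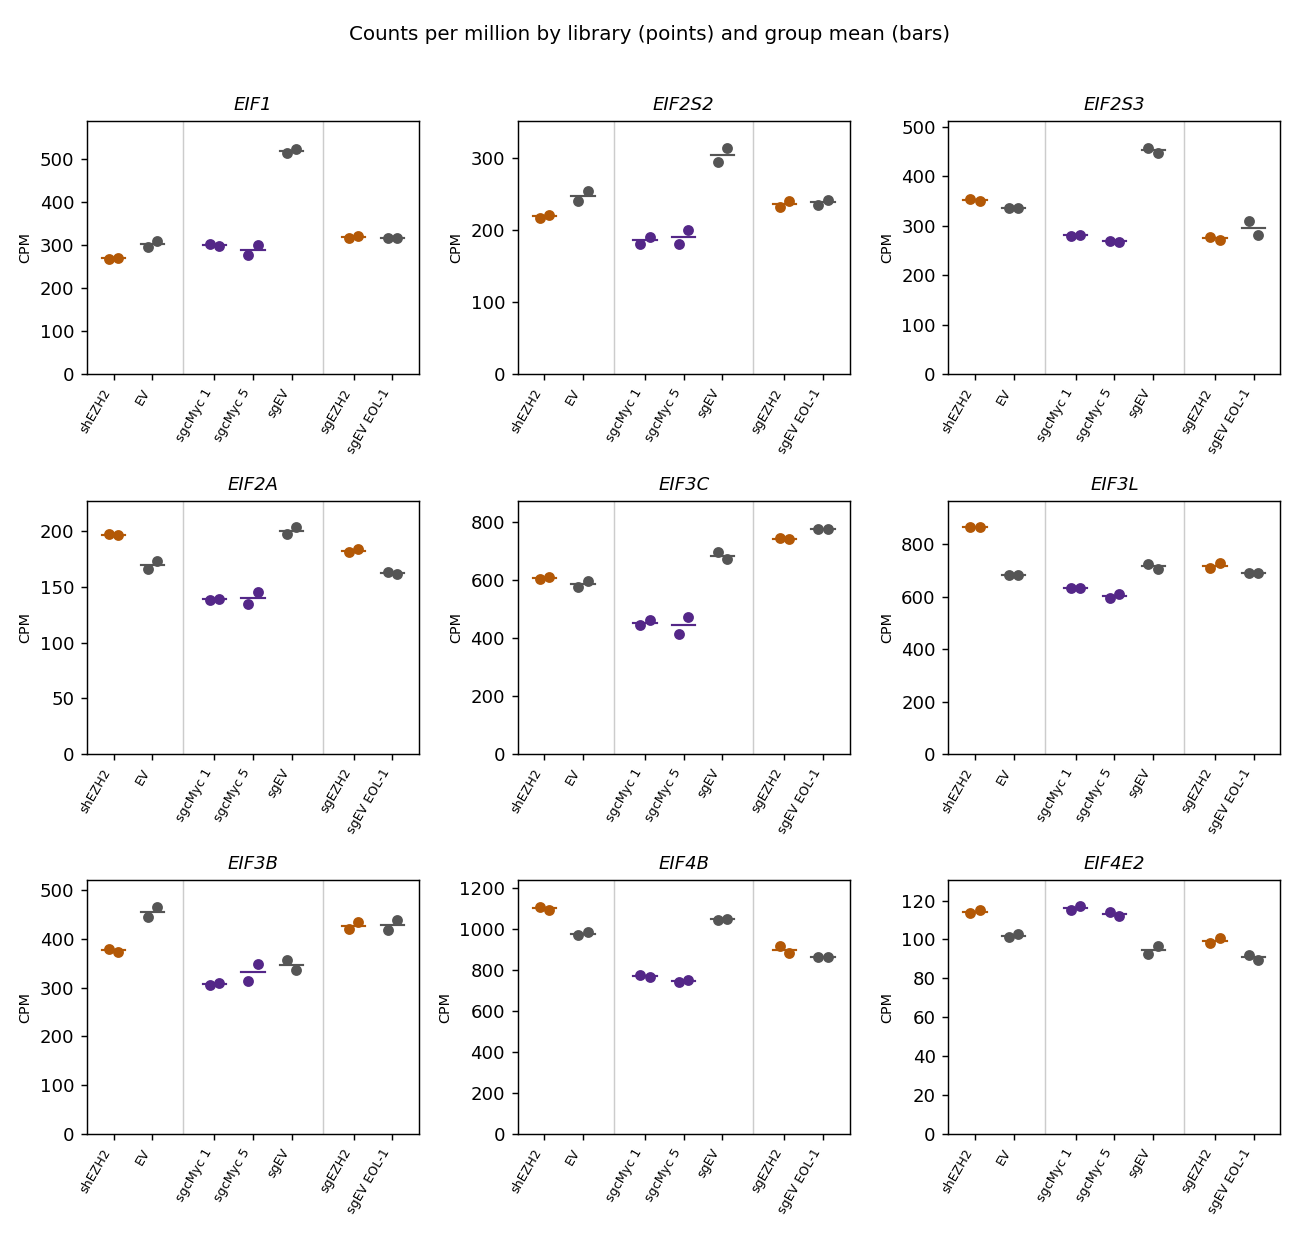
CPM of 9 members in every library (points) with the mean of each group (bars), for the EZH2 hairpin table, the MYC guide table and the EOL-1 table from left to right; the y axes start at 0. EIF1, EIF2S2, EIF2S3, EIF2A, EIF3C and EIF4B lie lower in all libraries labelled sgcMyc than in sgEV, EIF3L is at 865 and 866 CPM in shEZH2 cells, against 684 and 683 CPM in EV cells, and tables were normalised separately.

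The E-box CACGTG, the same letters on both strands, is the motif best known for MYC binding, and it was counted in promoter windows of 250 bases before to 50 after the gene start (RefSeq, GRCh38.p14). Of the 42 factor genes 36 had a window, and 9 of these (25%) held the motif, beside 8.77% of all 27305 genes in the promoter table. Those genes were not limited to the ones tested here, so the shares come from unlike sets. The motif stood in 3 of 12 matched factor genes that were lower in the libraries labelled sgcMyc, in 2 of 6 that were higher and in 4 of 18 that were not called. EIF2S2, EIF3E, EIF3H and EIF3L, which were lower, and EIF3A and EIF3G, which were not called, had no window. The windows of 4 genes are printed from 250 bases before the start to the start itself, because they show a fall without the motif, a fall with it and no call with it: EIF1 and EIF2S3 fell the most and have no E-box, EIF4B fell and has 1 E-box beginning 22 bases before the start, and EIF4E was not called and has 2, beginning 225 and 72 bases before it. Capitals mark each E-box and, as the last letter, the annotated start. EIF1 lies at chr17:41688635-41688885 on the plus strand, EIF2S3 at chrX:24054706-24054956 on the plus strand, EIF4B at chr12:53006206-53006456 on the plus strand and EIF4E at chr4:98929133-98929383 on the minus strand.
EIF1: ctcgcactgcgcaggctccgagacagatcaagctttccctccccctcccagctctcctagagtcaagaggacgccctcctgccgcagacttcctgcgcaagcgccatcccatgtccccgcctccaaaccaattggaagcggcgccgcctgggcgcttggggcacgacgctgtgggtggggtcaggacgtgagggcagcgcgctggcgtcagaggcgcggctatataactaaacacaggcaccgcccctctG
EIF2S3: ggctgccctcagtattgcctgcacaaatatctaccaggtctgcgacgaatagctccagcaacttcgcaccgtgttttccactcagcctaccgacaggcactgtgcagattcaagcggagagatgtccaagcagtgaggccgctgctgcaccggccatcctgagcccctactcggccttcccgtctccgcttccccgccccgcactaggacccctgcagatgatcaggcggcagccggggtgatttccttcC
EIF4B: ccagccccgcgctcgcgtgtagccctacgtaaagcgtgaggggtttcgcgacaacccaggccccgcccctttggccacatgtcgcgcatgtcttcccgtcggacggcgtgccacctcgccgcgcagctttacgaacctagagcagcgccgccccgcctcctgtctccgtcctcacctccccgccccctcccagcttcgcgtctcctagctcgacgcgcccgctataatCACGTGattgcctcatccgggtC
EIF4E: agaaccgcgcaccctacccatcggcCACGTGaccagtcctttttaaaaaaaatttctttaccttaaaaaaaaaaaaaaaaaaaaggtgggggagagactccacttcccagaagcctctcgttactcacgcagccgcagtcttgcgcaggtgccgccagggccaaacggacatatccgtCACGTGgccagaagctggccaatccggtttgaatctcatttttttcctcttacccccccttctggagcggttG
A match describes these letters and is not a measured binding site.

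Taken singly, guide 1 gave 6 higher and 17 lower rows of 64 (32.2% of all genes called, 16.2% higher and 16% lower) and guide 5 gave 8 higher and 17 lower (31.2% called, 15.7% higher and 15.5% lower). Both guides share the sgEV libraries. For EIF1 the log2 differences were −0.78 ± 0.048 with guide 1 and −0.85 ± 0.049 with guide 5, for EIF2S3 −0.69 ± 0.042 and −0.75 ± 0.043, for EIF3C −0.59 ± 0.059 and −0.62 ± 0.059, and for EIF4E2 0.30 ± 0.052 and 0.26 ± 0.052. Tested directly, guide 5 minus guide 1, 0 of 64 rows were called by edgeR or DESeq2, beside 0.409% of all genes (0.0789% higher and 0.33% lower), and 2 rows had an unadjusted p under 0.05. The smallest adjusted p belonged to EIF4BP6, a pseudogene of EIF4B, which was at 12.5 and 11.9 CPM with guide 5, against 16.5 and 17.6 CPM with guide 1 (log2 difference −0.48 ± 0.125, adjusted p = 0.183, edgeR). EIF5A came next at 623 and 662 CPM with guide 5, against 586 and 603 CPM with guide 1 (0.11 ± 0.047, adjusted p = 0.541, edgeR). EIF3B followed at 314 and 349 CPM with guide 5, against 305 and 309.8 CPM with guide 1 (0.11 ± 0.055, adjusted p = 0.622, edgeR). Neither gene's libraries overlap between the guides, yet the differences missed the threshold, which does not show that the guides act alike. Without guide 5 replicate 1, 4 rows were called higher and 2 lower in this difference, beside 6.03% of all genes called in the same fit.

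With the EZH2 guide in EOL-1, 6 of 13 eIF3 genes rose, with EIF1B, EIF2A and EIF4E3 among the others that rose, while EIF3A, EIF4G1, EIF5 and EIF2B3 were among those that fell. EIF3E, EIF3F and EIF3H were called higher in both lines. Of 65 rows tested, 11 (16.9%) were higher and 7 (10.8%) lower. The share called was 27.7%, near the 26.9% of all genes called, 15.1% higher and 11.8% lower. The median log2 difference was −0.014 over the family and 0.005 over all genes. The family took 1.59 and 1.59% of gene counts in sgEZH2 cells, against 1.61 and 1.61% in sgEV cells.

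Of the eIF3 genes that were called, EIF3F was at 371 and 385 CPM in sgEZH2 cells, against 341 and 344 CPM in sgEV cells (log2 difference 0.14 ± 0.031, adjusted p = 0.00261, edgeR). EIF3D was at 405 and 409 CPM in sgEZH2 cells, against 375 and 371 CPM in sgEV cells (0.13 ± 0.030, adjusted p = 0.00462, edgeR). In both genes the sgEZH2 libraries lay above the sgEV libraries, and EIF3M, EIF3K, EIF3H and EIF3E rose by 0.12, 0.11, 0.11 and 0.10. EIF3A, the largest subunit, was at 739 and 702 CPM in sgEZH2 cells, against 784 and 779 CPM in sgEV cells, and fell without overlap (−0.12 ± 0.033, adjusted p = 0.0120, edgeR).

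EIF4E3, a minor cap-binding relative of eIF4E, was at 22.3 and 22.9 CPM in sgEZH2 cells, against 16.7 and 18.0 CPM in sgEV cells. It had the largest rise among the factor genes (log2 difference 0.38 ± 0.070, adjusted p = 0.000531, edgeR), and in MV4;11 it was listed at 0.276 to 0.811 CPM. EIF1B, a close relative of EIF1, was at 54.4 and 58.0 CPM in sgEZH2 cells, against 47.2 and 48.7 CPM in sgEV cells (0.23 ± 0.049, adjusted p = 0.00198, edgeR). EIF2A was at 181 and 184 CPM in sgEZH2 cells, against 163 and 162 CPM in sgEV cells (0.17 ± 0.033, adjusted p = 0.00104, edgeR). EIF4E2 was at 98.2 and 100.5 CPM in sgEZH2 cells, against 92.2 and 89.5 CPM in sgEV cells (0.13 ± 0.040, adjusted p = 0.0224, edgeR), and the helicase EIF4A2 rose by 0.12. None of these genes overlapped between the groups.

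On the falling side, EIF4ENIF1 was at 30.5 and 28.9 CPM in sgEZH2 cells, against 34.0 and 34.2 CPM in sgEV cells (−0.20 ± 0.056, adjusted p = 0.0140, edgeR). EIF2B3, the gamma subunit of eIF2B, was at 39.8 and 39.1 CPM in sgEZH2 cells, against 45.6 and 42.9 CPM in sgEV cells (−0.16 ± 0.052, adjusted p = 0.0256, edgeR). EIF4G1 was at 389 and 382 CPM in sgEZH2 cells, against 420.2 and 426 CPM in sgEV cells (−0.13 ± 0.031, adjusted p = 0.00317, edgeR). EIF5, which rose in the libraries labelled sgcMyc, was here at 366 and 354 CPM in sgEZH2 cells, against 390.2 and 386 CPM in sgEV cells (−0.11 ± 0.031, adjusted p = 0.0154, edgeR). All 4 genes were lower in both sgEZH2 libraries than in either sgEV library, and EIF4H, a helicase cofactor, fell by 0.089. EIF1 (0.01) and the eIF2 subunits EIF2S1 (0.02), EIF2S2 (−0.01) and EIF2S3 (−0.11, adjusted p = 0.0695) were not called. Without sgEV replicate 1 the counts were 3 higher and 1 lower, and without sgEV replicate 2 they were 4 and 3, beside 18.4 and 18.1% of all genes called. With either of them left out, EIF3A, EIF3D, EIF3E, EIF3H, EIF3K, EIF3M, EIF4A2, EIF4E2, EIF4ENIF1, EIF4H and EIF5 lost their calls, EIF3F and EIF2B3 lost theirs without sgEV replicate 1 and EIF4G1 without sgEV replicate 2, all with the same direction (EIF3F between 0.11 and 0.16 over all alternatives). EIF1B, EIF2A and EIF4E3 stayed called under each of the 12 alternatives tried.

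The difference between the EZH2 effects of the lines was tested in one fit, in which the line and the agent (hairpin or guide) change together and cannot be told apart. Of 65 rows, 6 had a higher effect in MV4;11 and 5 a lower one, beside 26.5% of all genes called, 12.5% higher and 14.1% lower. The effect on EIF3L was larger in MV4;11, since its log2 difference was 0.34 there, against 0.06 in EOL-1, where it was at 709 and 728 CPM in sgEZH2 cells and 689 and 692 CPM in sgEV cells (difference of effects 0.29 ± 0.044, adjusted p = 0.000147, edgeR). EIF3B fell in MV4;11 and had a log2 difference of −0.004 in EOL-1, at 422 and 434 CPM in sgEZH2 cells and 419 and 439 CPM in sgEV cells (−0.26 ± 0.050, adjusted p = 0.00122, edgeR). EIF4A3 likewise rose in MV4;11 and had a log2 difference of 0.01 in EOL-1, at 243 and 250.4 CPM in sgEZH2 cells and 242 and 247 CPM in sgEV cells (0.22 ± 0.048, adjusted p = 0.00259, edgeR). EIF1B, at 35.0 and 34.8 CPM in shEZH2 cells and 35.7 and 40.1 CPM in EV cells, had a log2 difference of −0.12 in MV4;11, without a call, and rose in EOL-1 (−0.34 ± 0.088, adjusted p = 0.00974, edgeR). EIF3L, EIF3B and EIF4A3 stayed called under each of the 15 alternatives tried. EIF1B lost its call only with DESeq2, and the other 7 members lost theirs without at least 1 library; without shEZH2 replicate 1 the counts were 2 higher and 3 lower, and without sgEV replicate 1 they were 2 and 3, beside 19.8 and 19.7% of all genes called.

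**Figure D3:**
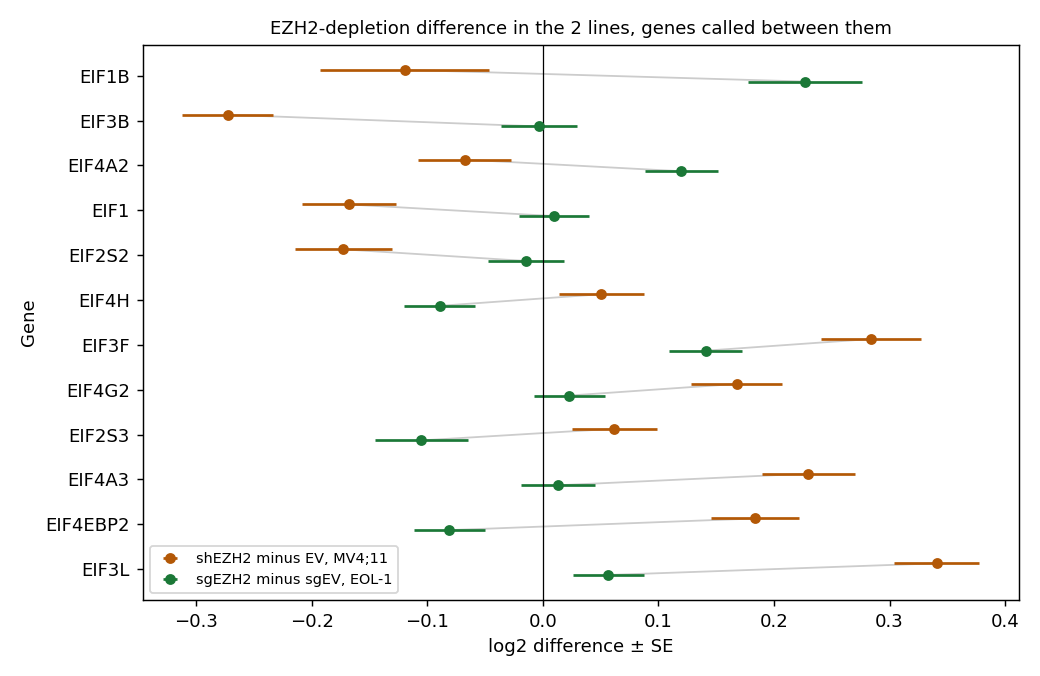
Log2 difference with bars of 1 standard error for the EZH2 hairpin in MV4;11 and the EZH2 guide in EOL-1, for the 11 members and EIF4EBP2 whose effects differed between the lines. EIF1B and EIF3B lie at the top with lower effects in MV4;11 (−0.12 and −0.27) than in EOL-1 (0.23 and −0.004), and EIF3L lies at the bottom with the higher effect in MV4;11.

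Of the eIF4E-binding proteins, EIF4EBP1 fell in all 3 comparisons and EIF4EBP2 rose in both MV4;11 comparisons. EIF4EBP1, the best known of these translation repressors, was at 167 and 178 CPM in shEZH2 cells, against 199 and 226 CPM in EV cells. It was at 112 and 108 CPM with guide 1 and at 116 and 122 CPM with guide 5, against 238 and 236 CPM in sgEV cells. In EOL-1 it was at 196 and 215 CPM in sgEZH2 cells, against 228 and 232 CPM in sgEV cells. It was lower without overlap in all 3 comparisons, by log2 differences of −0.30 ± 0.061 with the EZH2 hairpin (adjusted p = 0.00455), −1.05 ± 0.041 in the libraries labelled sgcMyc (adjusted p = 1.07e-09) and −0.16 ± 0.039 in EOL-1 (adjusted p = 0.00486, all edgeR). By guide the values were −1.11 ± 0.049 and −0.996 ± 0.049, with a difference between the guides of 0.12 (adjusted p = 0.553).

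EIF4EBP2, the second repressor, was at 281 and 279.7 CPM in shEZH2 cells, against 249 and 245 CPM in EV cells. It was at 311 and 293 CPM with guide 1 and at 299.7 and 287 CPM with guide 5, against 232 and 238 CPM in sgEV cells. In EOL-1 it was at 239 and 241 CPM in sgEZH2 cells, against 256 and 252 CPM in sgEV cells. It rose with the EZH2 hairpin (0.18 ± 0.038, adjusted p = 0.00412) and in the libraries labelled sgcMyc (0.34 ± 0.042, adjusted p = 4.33e-05), and in EOL-1 its lower level missed the threshold (−0.08 ± 0.031, adjusted p = 0.0613, all edgeR). The EZH2 effects of the lines differed for EIF4EBP2 (0.27 ± 0.044, adjusted p = 0.000311, edgeR) and were not called different for EIF4EBP1 (−0.13, adjusted p = 0.341, edgeR). For EIF4EBP1 the lack of a call held under 14 of 15 alternatives, with values between −0.23 and −0.047. Scaled to the spike-in RNAs, EIF4EBP2 lost its call with the EZH2 hairpin (0.14), as it did with either shEZH2 library left out. EIF4EBP3, a minor member, was called over the mean of both guides (−0.46). By guide it was called with guide 1 (−0.60) and not with guide 5 (−0.32). Its rows were at 5.74 to 11.4 CPM over the MV4;11 libraries.

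**Figure D4:**
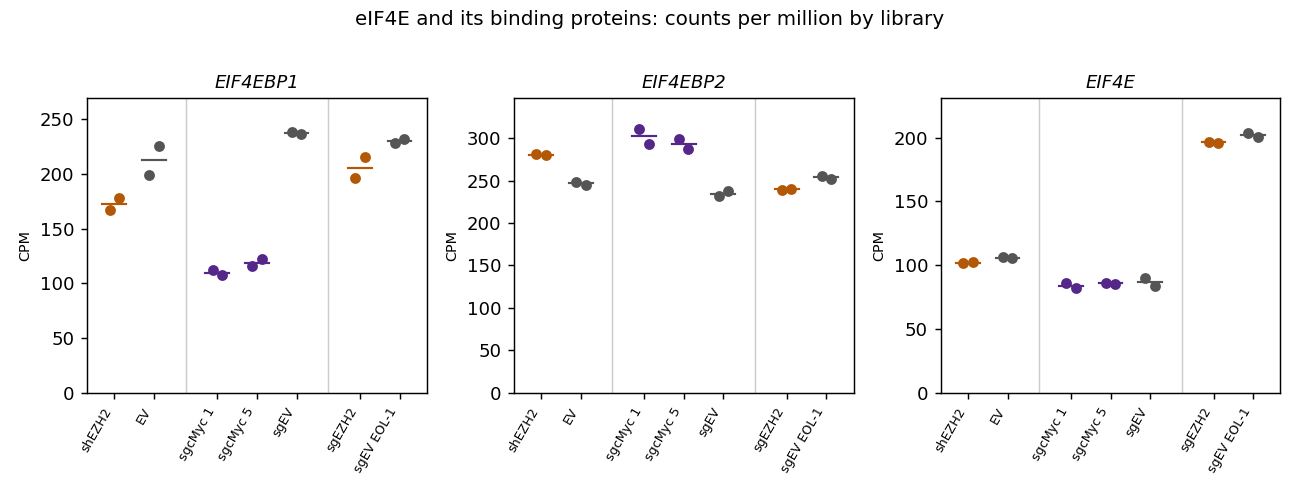
CPM of EIF4EBP1, EIF4EBP2 and EIF4E in every library (points) with group means (bars); the y axes start at 0. EIF4EBP1 is lowest in the libraries labelled sgcMyc, at 108 to 122 CPM against 236 and 238 CPM in sgEV, where EIF4EBP2 is higher and EIF4E overlaps its control.

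Set side by side, the 3 comparisons share no libraries. Of the 69 rows only EIF4E2 was called in the same direction, higher, in all 3, and its calls were lost with DESeq2 in both EZH2 comparisons. With the EZH2 hairpin and in the libraries labelled sgcMyc, 7 rows were called higher with the hairpin and lower in the MYC guide table (EIF2A, EIF3E, EIF3F, EIF3H, EIF3L, EIF4B and EIF4BP6), none the other way round, 2 higher in both (EIF4A3 and EIF4E2) and 2 lower in both (EIF1 and EIF2S2). The 7 rows are 11.1% of the 63 tested in both, beside 3.02% of 13230 genes, and the opposite pattern was met by 3.61% of those genes; 3.43% were higher in both and 4.47% lower in both, beside 3.17% of the family each. Between the EZH2 hairpin in MV4;11 and the EZH2 guide in EOL-1, 5 rows were higher in both (EIF2A, EIF3E, EIF3F, EIF3H and EIF4E2), 1 was lower in both (EIF1AXP1) and 0 were called in opposite directions. Those 5 are 7.94% of 63 rows, beside 3.55% of 12632 genes higher in both, while 2.68% of genes were lower in both and 1.75% and 2.92% had opposite calls. Between EOL-1 and the MYC guide table, 6 rows were higher in EOL-1 and lower with the guides, 3 were lower in EOL-1 and higher with the guides (EIF4ENIF1, EIF4G1 and EIF5), 2 were higher in both and 1 was lower in both (EIF2B3). Of 64 rows these are 9.38, 4.69, 3.12 and 1.56%, beside 3.08, 1.88, 5.52 and 3.71% of 12709 genes. For EIF3H the log2 differences were 0.22 with the hairpin, −0.30 with the MYC guides and 0.11 in EOL-1, and for EIF3F they were 0.28, −0.15 and 0.14. Several of these calls depended on the processing. With spike-in scaling, EIF3F (−0.031) and EIF3L (−0.095) were not called in the libraries labelled sgcMyc, nor EIF4B with the hairpin (0.12). With either shEZH2 library left out, EIF3E and EIF4B lost their hairpin calls. EIF3E and EIF3H lost their EOL-1 calls with either sgEV library left out. The hairpin calls of EIF3F, EIF3H and EIF3L held under every alternative tried. These counts are descriptions of calls, with no test of the pattern.

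Pseudogenes and copies share sequence with their parent genes, so their counts are uncertain. EIF1AXP1, a pseudogene of EIF1AX, was at 11.0 and 10.3 CPM in shEZH2 cells, against 13.9 and 14.4 CPM in EV cells (−0.41 ± 0.106, adjusted p = 0.0143, edgeR), and at 12.9 and 14.0 CPM in sgEZH2 cells, against 16.5 and 15.2 CPM in sgEV cells of EOL-1 (−0.24 ± 0.082, adjusted p = 0.0391, edgeR). EIF4BP6 was at 21.5 and 24.2 CPM in shEZH2 cells, against 19.1 and 15.8 CPM in EV cells (0.39 ± 0.105, adjusted p = 0.0181, edgeR). In both rows the groups did not overlap, and the parent EIF1AX itself was not called in either comparison (−0.10 and −0.04). In the libraries labelled sgcMyc, EIF2S2P4 was at 11.7 and 11.8 CPM with guide 1 and at 10.3 and 11.6 CPM with guide 5, against 19.7 and 15.6 CPM in sgEV cells (−0.63 ± 0.110, adjusted p = 0.00063, edgeR). EIF4BP7 was at 5.99 and 8.08 CPM with guide 1 and at 8.94 and 6.05 CPM with guide 5, against 12.8 and 10.6 CPM in sgEV cells (−0.69 ± 0.168, adjusted p = 0.00775, edgeR). EIF5AL1, a copy of EIF5A, was at 8.61 and 9.95 CPM with guide 1 and at 10.0 and 10.9 CPM with guide 5, against 7.12 and 6.14 CPM in sgEV cells (0.57 ± 0.128, adjusted p = 0.00382, edgeR). Each of these 3 rows moved in the direction of its parent gene. Neither antisense RNA was called, and counting strand is not given in the sources used here.

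Genes that act beside the initiation factors were counted by lists, to be read beside 27.7% of all genes called with the hairpin, 37.3% in the libraries labelled sgcMyc and 26.9% in EOL-1. Of 9 elongation genes, 4 rose and 1 fell with the EZH2 hairpin, 0 rose and 7 fell in the libraries labelled sgcMyc, and of 8 tested in EOL-1 none was called by edgeR, with 2 at an unadjusted p under 0.05 (shares called 55.6, 77.8 and 0%). EEF2, the translocation factor, was at 8733 and 8771 CPM in shEZH2 cells, against 7498 and 7365 CPM in EV cells (0.24), and its log2 difference was −0.57 in the libraries labelled sgcMyc and −0.01 in EOL-1. EEF1A2, an isoform of the tRNA-delivering factor, fell in both MV4;11 tables (−0.61 and −0.82). Of the 4 eIF2 kinases 0 were called with the hairpin, 2 fell in the libraries labelled sgcMyc (EIF2AK2, the RNA-sensing kinase PKR, −0.77, and EIF2AK3 −0.22) and 2 fell in EOL-1 (EIF2AK2 −0.34 and EIF2AK1 −0.12). In the libraries labelled sgcMyc the call of EIF2AK2 held under 15 of 15 alternatives and that of EIF2AK3 under 7, with DESeq2, spike-in scaling and limma among those without it and values between −0.27 and −0.10; in EOL-1 the calls of EIF2AK2 and EIF2AK1 held under 9 and 10 of 12. Of 16 initiation regulators 1 rose and 1 fell with the hairpin, 3 rose and 7 fell in the libraries labelled sgcMyc, and 3 rose and 6 fell in EOL-1 (shares called 12.5, 62.5 and 56.2%). ATF4, the transcription factor that eIF2 phosphorylation favours, fell in each, by 0.30, 1.83 and 0.14 on the log2 scale. MKNK2, a kinase of eIF4E, rose with the hairpin (0.27) and in the libraries labelled sgcMyc (0.17) and fell in EOL-1 (−0.35). LARP1, which binds mRNAs with a terminal oligopyrimidine start, fell in the libraries labelled sgcMyc (−0.51) and in EOL-1 (−0.23). Of 7 poly(A)-binding genes tested, 2 rose with the hairpin (PABPC1, 0.25, and its near copy PABPC3, 0.25) and 2 fell in the libraries labelled sgcMyc, and of 8 in EOL-1 2 fell (shares called 28.6, 28.6 and 25%, near or under those of all genes); the call of PABPC3 held under 8 of 13 alternatives. Of the termination genes 0 of 3 were called with the hairpin, 2 of 4 fell in the libraries labelled sgcMyc (ABCE1, −0.13, and GSPT1, −0.11, which turned to 0.011 with spike-in scaling) and 1 of 3 fell in EOL-1 (ETF1, −0.09); these calls held under 10 of 15 alternatives for ABCE1, 7 of 15 for GSPT1 and 6 of 12 for ETF1. Of the 2 mitochondrial initiation genes only MTIF2 was called, in the libraries labelled sgcMyc (−0.28).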

How the data were processed

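Total RNA of 14 libraries was analysed from 3 tables, one per comparison. The authors deposited, for every library, a raw column of expected counts per gene and a second column of normalised log2 values. RSEM, DESeq and the build hg19 are named, per the submitters' processing notes; versions, aligner, annotation and the method behind the log2 values are not given in the sources. Column names were matched to samples by target, guide and replicate number, and 0 value columns were left unassigned.

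Expected counts were rounded, filtered (filterByExpr), scaled by TMM and tested with edgeR 4.0.16 (robust glmQLFit, glmQLFTest) in R 4.3.3, one fit per table, with Benjamini-Hochberg adjustment over all genes tested and a threshold of 0.05; log2 differences carry standard errors. The MYC guide table was fitted with 3 groups, and the line difference as an interaction over the genes of both EZH2 tables. Each MV4;11 table has 56 spike-in rows, kept out of library sizes and tests. The edgeR code was tested on simulated data with known changes. The paired libraries of each group were no copies of each other (chi-square divided by its degrees of freedom 1.47 to 5.47), and the biological coefficient of variation was 0.0352 for the EZH2 hairpin, 0.0422 for the MYC guides and 0.0257 for EOL-1. Members, gene lists and tests were chosen with earlier results of these data known. Values per library are given for up to 6 called members per direction and comparison with the largest change and a mean of at least 5 CPM, for EIF4EBP1 and EIF4EBP2, for members called alike in all 3 comparisons and for the smallest adjusted p in the guide and line differences; EIF4E, EIF4EBP3, EZH2, MYC and EEF2 were added for their roles. Alternatives were DESeq2 1.42.0, its size factors, spike-in scaling, no filter, a mean of at least 50 counts, no robust step, limma 3.58.1 on the deposited log2 values, each library left out, a replicate block, and EIF3C with EIF3CL summed. Promoter windows came from RefSeq (GRCh38.p14), another build than the tables', so they give sequence and position only in that build.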

Additional observations from a re-analysis of the deposited data

Results flagged for a closer look

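In the edgeR interaction test, the EZH2 effect (hairpin in MV4;11 minus guide in EOL-1) differed between the lines for 11 members and EIF4EBP2. The 11 members are 16.9% of the 65 rows tested, beside 26.5% of all genes called. Of the 11 calls, 3 held under all alternatives run. The line and the agent change together and cannot be told apart. EIF1B had a difference of effects of −0.34 on the log2 scale, with a log2 difference of −0.12 in MV4;11 and 0.23 in EOL-1. EIF3B had −0.26 (−0.27 in MV4;11 and −0.004 in EOL-1), and EIF4A2 had −0.18 (−0.07 in MV4;11 and 0.12 in EOL-1). EIF1 had −0.17 (−0.17 in MV4;11 and 0.01 in EOL-1), and EIF2S2 had −0.15 (−0.17 in MV4;11 and −0.01 in EOL-1). Both were called lower in MV4;11 and not called in EOL-1. EIF4H had 0.15 (0.05 in MV4;11 and −0.09 in EOL-1). EIF3F had 0.15, although it was called higher in both lines (0.28 in MV4;11 and 0.14 in EOL-1). EIF4G2 had 0.15 (0.17 in MV4;11 and 0.02 in EOL-1), EIF2S3 had 0.18 (0.06 in MV4;11 and −0.11 in EOL-1) and EIF4A3 had 0.22 (0.23 in MV4;11 and 0.01 in EOL-1). EIF4EBP2 had 0.27 (0.18 in MV4;11 and −0.08 in EOL-1), and EIF3L had 0.29 (0.34 in MV4;11 and 0.06 in EOL-1).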

How the results depend on the processing

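No called member of the 3 main comparisons or of the line difference changed direction under any alternative run; 4 of 16 calls with the EZH2 hairpin, 13 of 29 in the libraries labelled sgcMyc, 3 of 18 in EOL-1 and 3 of 11 in the line difference held under all of them. With DESeq2, lower rows numbered 3 for the EZH2 hairpin, 4 in EOL-1 and 2 in the line difference. Over all genes 13.6, 13.5 and 15.7% were called in these fits. Higher rows numbered 3 for guide 1 and 5 for guide 5 with DESeq2, beside 18.8 and 19.9% of all genes called. Fitted without the other guide, guide 1 had 11 higher rows and guide 5 had 5. These fits called 42.5 and 28.2% of all genes, against 32.2 and 31.2% with both guides fitted. With spike-in scaling, the hairpin had 3 higher and 2 lower rows, the MYC guides had 11 lower rows and each guide alone had 10. Of all genes, 16.3% were called for the hairpin, 30.9% for the MYC guides, 22.2% for guide 1 and 27.3% for guide 5. Over all genes this scaling moved the median to −0.044 for the hairpin and to 0.113 for the MYC guides. With it, 36.4% of hairpin calls were higher in place of 48.5%. The DESeq2 counts over all genes were 905 higher and 939 lower for the hairpin, against 1824 and 1934 with edgeR, 1635 and 1584 against 2590 and 2613 for the MYC guides, and 1122 and 748 against 2099 and 1639 in EOL-1. The cause of these moves was not tested.

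No label says whether libraries with the same replicate number share a culture. Correlations of same-numbered deviations were 0.117 for the hairpin, 0.022, −0.023 and 0.156 for the MYC guides and −0.074 in EOL-1. With the replicate block the hairpin had 16 higher and 8 lower rows and the line difference 10 higher and 5 lower. In this replicate block fit the MYC guides had 9 and 23, guide 1 had 7 and 18, and guide 5 had 8 and 18. The guide difference had 0 and 0, and EOL-1 had 11 and 8. Over all genes the block called 34.7% for the hairpin and 28.9% for the line difference, against 27.7 and 26.5% without it. It called 40.6% for the MYC guides, 35.4% for guide 1, 34.7% for guide 5, 0.925% for the guide difference and 27.2% in EOL-1.

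Leaving out 1 library at a time gave 6 to 18 higher and 1 to 10 lower rows for the hairpin, 2 to 12 and 14 to 23 for the MYC guides, 1 to 3 and 10 to 13 for guide 1, 2 to 11 and 13 to 21 for guide 5, 0 to 4 and 0 to 2 for the guide difference, 3 to 14 and 1 to 8 in EOL-1, and 2 to 8 and 3 to 7 in the line difference. The share of all genes called moved in the same fits as well. The ranges therefore do not show that calls in this family are less stable than those of other genes. Where a group was left with 1 library, that library is assumed to vary like the others. Uncalled values changed sign with spike-in scaling for EIF3C with the hairpin (−0.0012), for EIF4A1 (0.096) and EIF4E (0.085) and the called GSPT1 (0.011) with the MYC guides, and for EIF4EBP2 in the guide difference (0.023). In EOL-1, EIF4A1 changed sign with the minimum of 50 counts (0.0047) and EIF1 with limma (−0.0058). Without 1 library at a time, uncalled values crossed 0 for EIF2S1 with the hairpin (−0.036 to 0.012), for EIF4E (−0.078 to 0.020) and EIF4A1 (−0.052 to 0.017) with the MYC guides, for EIF4EBP2 in the guide difference (−0.082 to 0.0037), and in EOL-1 for EIF1 (−0.0018 to 0.012), EIF2S1 (−0.018 to 0.058), EIF2S2 (−0.044 to 0.0045) and EIF4A1 (−0.025 to 0.0088). Spike-in scaling of EOL-1 and of the line difference, and limma for the line difference, were not run, since EOL-1 has no spike-in rows and the tables were normalised separately. Depth limits EIF4E3 in MV4;11, EIF3CL and the pseudogenes under 1 CPM.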

Other observations

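The control groups of MV4;11 come from tables normalised separately, so their levels are only set side by side. EIF1 was at 295 and 310 CPM in EV cells and at 514 and 524 CPM in sgEV cells, EIF2S2 at 241 and 254 and at 294 and 313 CPM, and EIF2S3 at 337 and 336 and at 456 and 448 CPM. EIF1 in the libraries labelled sgcMyc, at 277 to 303 CPM, was listed near its level in EV cells. EIF2S2 and EIF2S3 were not, since both were listed below their EV levels in those libraries. The reason for the unlike control levels was not tested. EIF4E was at 197 and 196 CPM in sgEZH2 cells and 204 and 200.7 CPM in sgEV cells of EOL-1, and at 82.1 to 106 CPM over the MV4;11 libraries. EIF4G3, a paralogue of EIF4G1, was at 36.9 and 36.3 CPM in sgEZH2 cells and 39.0 and 36.3 CPM in sgEV cells of EOL-1, and at 106 to 135 CPM over the MV4;11 libraries.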
